A study of Taeniopygia guttata with 48 samples.

Results

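RNA was measured in the hypothalamus of adult male zebra finches (Taeniopygia guttata) that had hatched from eggs given testosterone or plain oil. Testosterone males came from eggs injected with 500 pg of testosterone dissolved in 5 µl of peanut oil on the morning of laying, and control males came from eggs injected with 5 µl of peanut oil alone. Each group had 3 libraries. The genes described are those with a mean of at least 1 FPKM over these 6 libraries, which held for 13402 of the 17475 genes in the deposited table. FPKM gives the sequenced fragments of a gene relative to its transcript length and to the size of the library.

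The series holds 24 RNA libraries in 8 groups of 3, by treatment, sex and brain region, the second region being the nucleus taenia of the amygdala. Tissue was taken with a 1 mm punch from frozen sections. Within a group the libraries carry separate sample labels, and whether they stand for different birds is not said, so the p-values reflect only the spread among these libraries, which may be technical. In bulk tissue, fewer cells of a type and less RNA per cell cannot be told apart.

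Female birds deposit steroid hormones, testosterone among them, in the yolk, and the embryo meets these hormones before its own gonads are active. Testosterone acts through the androgen receptor, and through oestrogen receptors after conversion by the enzyme aromatase, and both routes are present in the songbird hypothalamus. The hypothalamus controls the pituitary, reproduction, feeding and the response to stress. The comparison asks whether a single dose in the egg was followed by a different RNA profile in the adult male hypothalamus.

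The identifiers in the table carry no gene symbols, and the gene table used here matched 0 of them. Members could therefore be described by level, size, direction and consistency, but not by function, and markers of the hypothalamus or of neighbouring tissue could not be read. The means of the members nearest to the threshold were 1.003 FPKM inside and 0.998 FPKM outside. Of the 4073 genes outside it, 1558 were listed at 0 in all 6 libraries. Among the members, 12759 were above 0 in all 6 libraries and 643 were listed at 0 in at least 1. Of these 643, 296 were at 0 in exactly 1 library and 119 had a mean of at least 10 FPKM, so a 0 was not limited to low genes. A group mean of at least 1 FPKM was reached only in testosterone males by 197 members and only in control males by 356. At 0 in all 3 testosterone libraries and above 0 in all 3 control libraries were 6 members, with control values of 0.313 to 61.0 FPKM. The opposite held for 5 members, with testosterone values of 0.916 to 8.86 FPKM.

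The 6 libraries differed in how many low genes they held. Genes above 0 numbered 14640, 14410 and 14672 in testosterone males, against 14920, 14926 and 14938 in control males. The groups did not overlap, with means of 14574 ± 143 and 14928 ± 9.17 (SD, n = 3 each; exact two-sided permutation test p = 0.1, the smallest that 10 splits allow; 0.175 adjusted over 7 library measures). The median FPKM over all genes was 10.3, 10.5 and 11.4 in testosterone males, against 11.6, 11.9 and 11.7 in control males. The median FPKM of the 4129 members of 1 to 10 FPKM was 2.94, 3.16 and 3.66 in testosterone males, against 4.03, 3.80 and 3.67 in control males. Both medians were lower in every testosterone library than in every control library (exact two-sided permutation p = 0.1 each, 0.175 adjusted). The median of members of 1 to 10 FPKM was not a planned measure, and its groups were barely apart, at 3.66 against 3.67 FPKM. The first quartile of FPKM, also not planned, did not overlap either (permutation p = 0.1). The groups overlapped in total FPKM (permutation p = 0.6), in the share of the 100 most abundant genes (p = 0.3) and in mean correlation with the other 5 libraries (p = 0.9). Testosterone library 3 lay nearest to the controls in genes above 0 and in both medians. Absolute depth is unknown. Rough relative depths, read from the steps of low values, were 1.24, 0.63 and 0.84 in testosterone libraries and 1.03, 1.09 and 1.27 in control libraries, and 36.2% of the 276 pairs of libraries in the series lay within 3% of the fitted depths. The part of depth in these differences was not tested.

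Correlations within and between the groups overlapped. Across members, Pearson's r of log2(FPKM + 1) was 0.914 to 0.930 between testosterone libraries and 0.876 to 0.951 between control libraries. Between a testosterone and a control library it was 0.864 to 0.947. Testosterone library 3 had r = 0.947 with control library 2 and 0.944 with control library 3. Control library 1 had the lowest values, 0.864 to 0.896 with each of the other 5 libraries. It also stood alone at least 2-fold above the other 5 libraries in 329 genes and at least 2-fold below them in 368. Testosterone library 1 did so in 111 and 204 genes, testosterone library 2 in 98 and 94, and the remaining 3 libraries in 28 to 71 genes each way. Control library 1 and testosterone library 1 thus stood apart, and results are given with and without them.

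**Figure D1:**
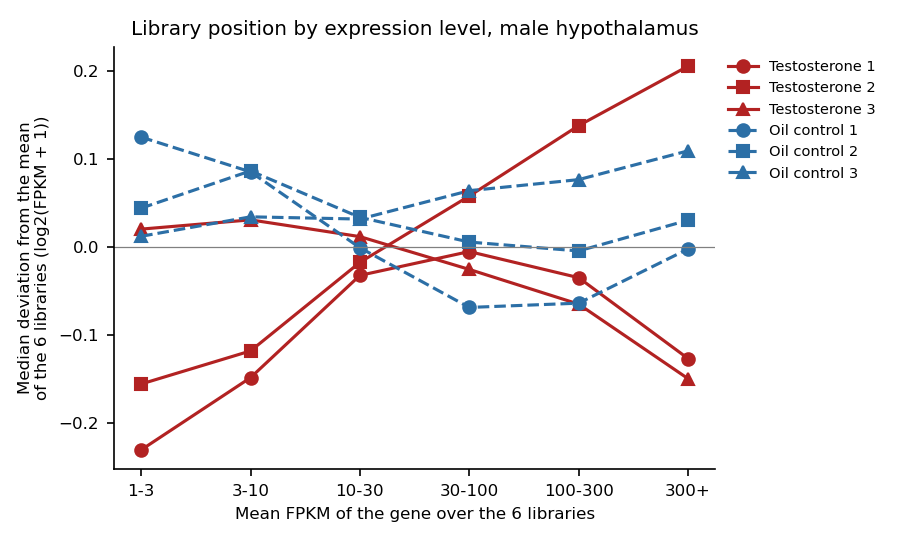
Median deviation of each library from the mean of the 6 libraries (log2 of FPKM + 1, y axis), over the genes of each expression level (mean FPKM, x axis), with testosterone libraries 1 to 3 and control libraries 1 to 3 as lines. At 1 to 3 FPKM, testosterone libraries 1 and 2 lie at -0.23 and -0.16, testosterone library 3 at 0.02, and the control libraries at 0.01 to 0.12.

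The position of a library changed with the level of the genes. For members of 1 to 3 FPKM, the median deviation from the mean of the 6 libraries was -0.23, -0.16 and 0.02 on the log2 scale in testosterone libraries 1 to 3. In control libraries 1 to 3 it was 0.12, 0.04 and 0.01. At 300 FPKM and over, testosterone library 2 was the highest at 0.20, while testosterone libraries 1 and 3 were at -0.13 and -0.15. Low genes were thus lowest in testosterone libraries 1 and 2, as the plot of library position by expression level shows. Testosterone library 3 lay among the control libraries at 1 to 3 FPKM. At 3 to 10 FPKM it lay under them, at 0.031 against 0.085, 0.086 and 0.034 in control libraries 1 to 3.

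No gene passed the test of testosterone against control. With limma on log2(FPKM + 1) over the 6 libraries, 0 of 13402 genes (0.0%) had a Benjamini-Hochberg adjusted p under 0.05, and the smallest adjusted p was 0.219. At an unadjusted p under 0.05, 555 genes were higher in testosterone males (4.14%) and 759 were lower (5.66%). Both directions together came to 1314 genes (9.80%). Median-ratio scaling gave 665 higher and 667 lower genes. Quantile normalization, which takes out a general shift by construction, gave 689 and 646. The excess of lower genes at this threshold thus depended on the scaling. No direction was therefore shown for any single gene, and the counts that follow describe these 6 libraries.

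Precision was read from the interval of each single gene. These intervals are not adjusted for the number of genes, so they do not give the size that the adjusted test could find. The median half-width of a gene's 95% confidence interval was 0.72 on the log2 scale, or 1.64-fold. It was 1.05 (2.07-fold) at 1 to 3 FPKM and 0.58 (1.49-fold) at 30 to 100 FPKM. For 46.8% of members the whole interval lay within 2-fold in either direction, and for 86.8% it lay within 4-fold. Within 2-fold were 10.9% of members at 1 to 3 FPKM, 28.1% at 3 to 10 FPKM and 50.7% at 10 to 30 FPKM. At higher levels the share was 63.7% at 30 to 100 FPKM, 61.8% at 100 to 300 FPKM and 59.4% at 300 FPKM and over. In this fit of 6 libraries a 2-fold difference could thus be bounded for most genes above 10 FPKM on the log2(FPKM + 1) scale. Under 3 FPKM it could be bounded for few genes. At 10 to 30 FPKM the share was 32.6% to 47.4% without 1 library. With the 12 hypothalamus libraries in the fit it was 36.2% at 10 to 30 FPKM and 43.1% at 30 to 100 FPKM. There it was 38.9% at 100 to 300 FPKM and 27.0% at 300 FPKM and over. The share at 1 to 3 FPKM was set largely by the value added before the log, at 0.383% with 0.1 added and 88.8% with 5 added.

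On this scale most differences were under 2-fold. Over all members the log2 difference, testosterone minus control, had a median of -0.05 and quartiles of -0.35 and 0.23. From the 5th to the 95th percentile it ran from -1.05 to 0.79. Its absolute value had a median of 0.29, beside a median SD within groups of 0.37. At 1 to 3 FPKM the median absolute difference was 0.39 and the median SD 0.53. At 3 to 10 FPKM they were 0.36 and 0.46, and at 10 to 30 FPKM 0.28 and 0.35. At 30 to 100 FPKM they were 0.24 and 0.30, and at 100 to 300 FPKM 0.25 and 0.31. At 300 FPKM and over they were 0.26 and 0.31. Size and spread were both largest at 1 to 3 FPKM. The difference is between means of 3 libraries, and the SD is among single libraries. These are unlike measures, so a median difference under the median SD, as at each of the 6 levels, says nothing about treatment. The order of the levels depended on the value added before the log. With 5 added, the median absolute difference was smallest at 1 to 3 FPKM, at 0.16 with an SD of 0.21, and was 0.26 with an SD of 0.31 at 300 FPKM and over. With 0.1 added, it was 0.64 with an SD of 0.84 at 1 to 3 FPKM.

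**Figure D2:**
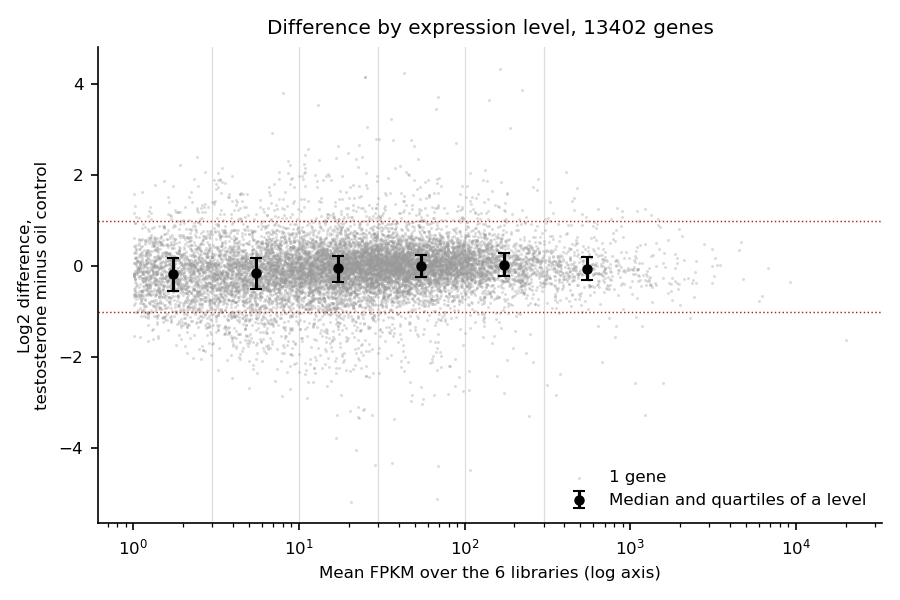
Log2 difference of each member, testosterone minus oil control (y axis, log2 of FPKM + 1), against its mean FPKM over the 6 libraries (x axis, log scale), with the median and the quartiles of each expression level in black and dotted lines at 2-fold. The medians run from -0.16 at 1 to 3 FPKM to 0.03 at 100 to 300 FPKM, and the quartiles include 0 at every level.

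The direction depended on the level. Of all members, 6121 (45.7%) were higher in testosterone males and 7281 were lower. At 1 to 3 FPKM 37.3% of 1568 members were higher, with a median log2 difference of -0.16 and quartiles of -0.55 and 0.18. At 3 to 10 FPKM 37.8% of 2561 were higher, with a median of -0.15. At 10 to 30 FPKM the share was 45.9% of 3678 and the median -0.04. At 30 to 100 FPKM it was 51.8% of 3710 and 0.02, and at 100 to 300 FPKM 53.5% of 1360 and 0.03. At 300 FPKM and over it was 43.2% of 525, with a median of -0.06. An excess of lower genes was thus greatest under 10 FPKM, where testosterone libraries 1 and 2 were low for genes in general. Quantile normalization gives all 6 libraries the same distribution. It takes out such a general shift by construction, so it cannot weigh the excess. After it, 52.6% were higher at 1 to 3 FPKM and 51.1% at 3 to 10 FPKM. Median-ratio scaling kept the excess at these 2 levels, at 39.3% and 40.9%, and moved the share over all members to 49.4%. At 10 to 30 FPKM it left almost no excess, with 1834 higher and 1844 lower genes (49.9% higher).

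Leaving out 1 library moved these shares by a few points under 10 FPKM and changed their side of 50% at 30 to 100 and at 100 to 300 FPKM. At 1 to 3 FPKM the share of members higher in testosterone males was 34.4% without testosterone library 3 and 40.0% without testosterone library 1, the lowest and the highest of the 6. At 3 to 10 FPKM the range was 36.5% to 40.8%. At 10 to 30 FPKM the share stayed under 50%, at 43.2% without control library 1 to 47.7% without control library 3. At 30 to 100 FPKM it was 46.3% without control library 1, 49.4% without testosterone library 2 and 55.8% without control library 3. At 100 to 300 FPKM it was 47.4% without control library 1, 48.5% without testosterone library 2 and 58.3% without control library 3. At 300 FPKM and over it stayed under 50%, at 37.0% to 49.7%. An excess of lower genes was thus present in each of the 6 leave-outs under 30 FPKM. At 10 to 30 FPKM, median-ratio scaling of all 6 libraries left almost no excess. At 300 FPKM and over the excess was all but absent without testosterone library 1, with 261 higher and 264 lower genes. Neither direction was present in all 6 at 30 to 300 FPKM. Testosterone libraries 1 and 2 were both low under 10 FPKM, and leaving out 1 of them left the other in.

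**Figure D3:**
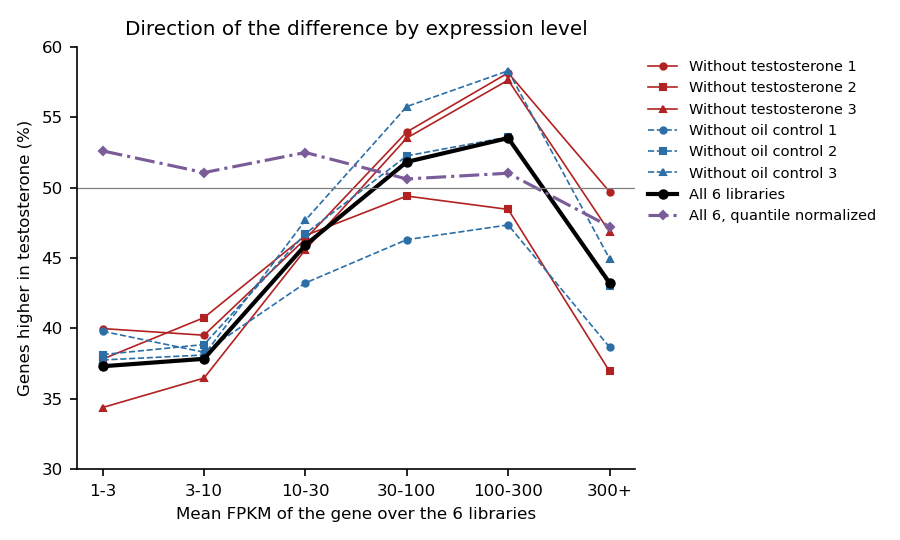
Share of genes higher in testosterone than in oil-control males (y axis, percent, drawn from 30 to 60) by mean FPKM of the gene (x axis), with all 6 libraries, without each library in turn, and with all 6 after quantile normalization. Under 10 FPKM the share lies below 50% in all 6 leave-outs and above it after quantile normalization (52.6% at 1 to 3 FPKM). This normalization takes out a general shift of low genes by construction.

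Consistency of the libraries was next counted. Every testosterone library was above every control library in 1093 members (8.16%), and every one was below in 1154 (8.61%). Exactly 2 of the 3 testosterone libraries were above all controls in a further 1936 members, and exactly 2 were below all controls in 2811. At 1 to 3 FPKM 61 members (3.89%) were separate and higher and 153 (9.76%) separate and lower. At 3 to 10 FPKM these were 126 (4.92%) and 263 (10.3%). At 10 to 30 FPKM they were 303 (8.24%) and 328 (8.92%). At 30 to 100 FPKM they were 401 (10.8%) and 271 (7.30%), and at 100 to 300 FPKM 155 (11.4%) and 97 (7.13%). At 300 FPKM and over they were 47 (8.95%) and 42 (8.0%). With all 6 libraries, genes with separate groups were thus mostly lower in testosterone males under 10 FPKM and mostly higher from 30 to 300 FPKM. Without testosterone library 2 there were 701 higher and 723 lower at 30 to 100 FPKM, and 239 higher and 306 lower at 100 to 300 FPKM, so the order from 30 to 300 FPKM turned round without that library. Under 10 FPKM lower genes were the more numerous in each of the 6 leave-outs. After quantile normalization, which takes out a general shift by construction, the counts at 1 to 3 FPKM were 106 higher and 83 lower. At 3 to 10 FPKM they were 224 higher and 171 lower, so this order under 10 FPKM turned round. At 100 to 300 FPKM they were 119 higher and 128 lower, so it turned round there too, while 349 higher and 299 lower genes at 30 to 100 FPKM kept it. Over all members, 1246 genes (9.30%) were separate and higher after quantile normalization and 997 (7.44%) separate and lower. After median-ratio scaling these were 1238 (9.24%) and 1021 (7.62%). The order over all members thus turned round with either scaling.

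Of the members, 417 were at least 2-fold higher in testosterone males (3.11%) and 740 at least 2-fold lower (5.52%). The share 2-fold apart in either direction was 10.9% at 1 to 3 FPKM and 13.6% at 3 to 10 FPKM. It was 8.43% at 10 to 30 FPKM, 5.55% at 30 to 100 FPKM, 6.18% at 100 to 300 FPKM and 7.05% at 300 FPKM and over. The shares of low genes were set largely by the added value. At 1 to 3 FPKM the share was 32.5% with 0.1 added and 0.0% with 5 added, while at 300 FPKM and over it was 7.43% and 6.86%. Lower genes outnumbered higher ones by 121 to 50 at 1 to 3 FPKM, 255 to 94 at 3 to 10 FPKM and 201 to 109 at 10 to 30 FPKM. At 30 to 100 FPKM there were 97 higher and 109 lower genes, and at 100 to 300 FPKM 47 higher and 37 lower. The excess of 2-fold lower genes thus lay mostly in the levels under 30 FPKM. After quantile normalization there were 488 higher and 581 lower genes in all, with 73 higher and 69 lower at 1 to 3 FPKM, 120 higher and 177 lower at 3 to 10 FPKM and 126 higher and 177 lower at 10 to 30 FPKM, so the excess was not kept at 1 to 3 FPKM.

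Many large differences came with overlapping groups or with a 0. The groups were separate in 189 of the 417 higher genes (45.3%) and in 342 of the 740 lower genes (46.2%). At least 1 library was at 0 in 114 of the 417 and in 205 of the 740. A 4-fold difference was present in 55 higher and 118 lower genes, of which 31 and 56 held a 0. An 8-fold difference was present in 13 higher and 20 lower genes, of which 8 and 16 held a 0. The groups were separate in 47.3% of the 55 and 48.3% of the 118 genes past 4-fold, and in 38.5% of the 13 and 25% of the 20 past 8-fold. Size and separation were thus different properties, and many of the 8-fold genes had overlapping groups. Among the 20 genes of greatest difference in each direction, log2 differences were 2.67 to 4.35 in the higher genes and -5.18 to -3.03 in the lower ones. Of these, 13 higher and 16 lower genes held a 0, and the groups were separate in 7 and in 5.

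The share of 2-fold genes that kept a 2-fold difference depended on which library was left out. Without control library 1, 277 of the 417 higher genes (66.4%) and 470 of the 740 lower genes (63.5%) kept a 2-fold difference. Without testosterone library 1, 301 (72.2%) and 507 (68.5%) kept it, and without testosterone library 2, 316 (75.8%) and 578 (78.1%). Without testosterone library 3, 392 (94.0%) and 683 (92.3%) kept it. Without control library 2 the shares were 89.0% and 87.8%, and without control library 3 90.2% and 86.4%. The 2-fold genes thus rested most on control library 1, testosterone library 1 and testosterone library 2, the libraries with most genes standing alone.

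**Figure D4:**
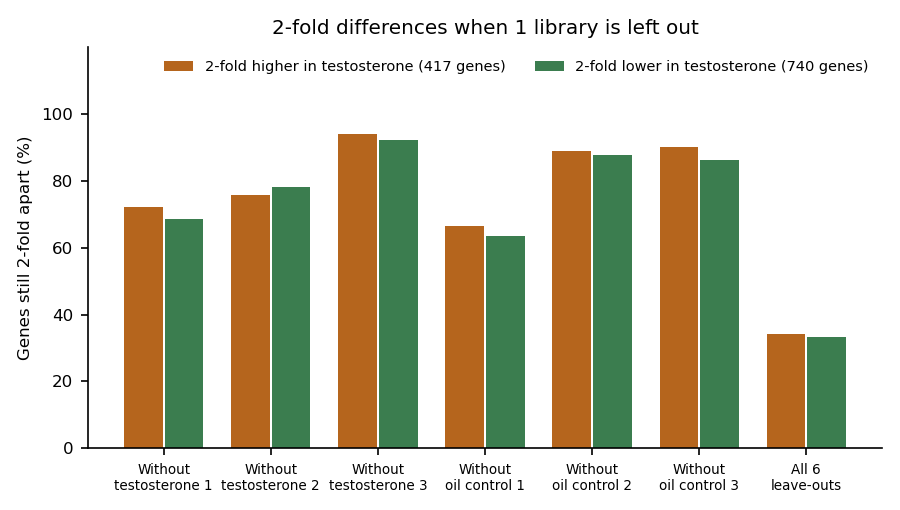
Share of the 417 genes 2-fold higher and the 740 genes 2-fold lower in testosterone males (y axis, percent) that keep a 2-fold difference of the same direction without the library named on the x axis, with the share kept in all 6 leave-outs at the right (34.1% and 33.2%). Of the single leave-outs, the bars are shortest without control library 1 (66.4% and 63.5%) and tallest without testosterone library 3 (94.0% and 92.3%).

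In all 6 leave-outs together, 142 of the 417 higher genes (34.1%) and 246 of the 740 lower genes (33.2%) stayed 2-fold apart. The direction itself turned in at least 1 leave-out in 43 of the 417 and in 42 of the 740. By level, 16 of 50 higher and 31 of 121 lower genes were kept in all 6 leave-outs at 1 to 3 FPKM. At 3 to 10 FPKM 31 of 94 and 72 of 255 were kept, and at 10 to 30 FPKM 46 of 109 and 83 of 201. At 30 to 100 FPKM 32 of 97 and 44 of 109 were kept, and at 100 to 300 FPKM 13 of 47 and 11 of 37. At 300 FPKM and over 4 of 20 and 5 of 17 were kept. The highest of these shares was that of the higher genes at 10 to 30 FPKM, 46 of 109, so in each level and direction most 2-fold genes were lost in at least 1 leave-out. Of the genes at an unadjusted p under 0.05, 139 of 555 higher (25%) and 247 of 759 lower (32.5%) passed that level in all 6 leave-outs. Over all members, whatever their size, 8290 (61.9%) had 1 direction in all 6 leave-outs, from 57.5% at 1 to 3 FPKM to 65.9% at 300 FPKM and over.

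The count of genes past the adjusted threshold also changed with single libraries. It was 4 without testosterone library 1 (1 higher, 3 lower), 1 without testosterone library 2 and 3 without testosterone library 3. It was 2 without control library 1, 0 without control library 2 and 3 without control library 3. These were 13 different genes, and 0 of them passed in more than 1 leave-out. Of the 13, 11 held a 0 in at least 1 of the 6 libraries and 7 were at 0 in a whole group. A gene at 0 in all libraries of a group has no measured spread there. Without testosterone library 3, 1 of the 3 genes held a 0. The part of the 0 values in these calls was not tested. At an unadjusted p under 0.05 the leave-outs gave 655 genes without testosterone library 1 and 1746 without testosterone library 3.

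A wide gap between groups was found in few genes with all 6 libraries. In 8 of 13402 members the lowest testosterone value was at least 2-fold above the highest control value. In 21 of 13402 the highest testosterone value was at least 2-fold below the lowest control value, both on the log2(FPKM + 1) scale. These counts rested on all 6 libraries, since a group of 2 is more easily separate. They were 134 higher and 211 lower without testosterone library 3, 27 and 123 without control library 3, 18 and 57 without testosterone library 2, and 18 and 35 without testosterone library 1. They were 25 and 39 without control library 1 and 22 and 49 without control library 2. With a pseudocount of 0.1 there were 14 higher and 42 lower genes, and with a pseudocount of 5 there were 1 and 5. The 8 higher genes had mean levels of 1.01 to 10.9 FPKM and log2 differences of 1.47 to 3.81, and 2 of them were above 0 in all 6 libraries. The 21 lower genes had mean levels of 1.09 to 246 FPKM and log2 differences of -5.18 to -1.50, and 16 of them were above 0 in all 6 libraries.

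Among members above 0 in all 6 libraries, the 2 higher and the 2 lower genes of smallest p were followed through the series by their identifiers. Their size and steadiness in the male hypothalamus follow from that choice and are no support for them. ENSTGUG00000012317 had 21.4, 18.0 and 12.7 FPKM in testosterone males, against 5.69, 4.27 and 3.26 FPKM in control males. Its lowest testosterone value was thus more than 2-fold above its highest control value. The means were 17.4 ± 4.39 and 4.41 ± 1.22 FPKM (SD, n = 3 each), and the log2 difference was 1.76 ± 0.30 (SE), or 3.38-fold, with a limma adjusted p of 0.474. Without each library in turn the difference was 1.60 to 1.96 and the adjusted p 0.142 to 0.931. In the female hypothalamus it had 8.68, 7.53 and 17.0 FPKM with testosterone, against 4.74, 4.70 and 7.36 FPKM with oil. The groups were again separate, as for 4.89% of all members there, but only by 7.53 against 7.36 FPKM. Its difference there was 0.81 ± 0.35 (SE). In the male nucleus taenia it had 12.9, 4.45 and 16.2 FPKM with testosterone, against 8.14, 10.7 and 6.51 FPKM with oil, and the groups overlapped.

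ENSTGUG00000013185 had 46.0, 44.1 and 34.0 FPKM in testosterone males, against 18.1, 18.3 and 19.1 FPKM in control males. The control values lay within about 1 FPKM of each other and all testosterone values were well above them. The means were 41.4 ± 6.43 and 18.5 ± 0.539 FPKM (SD, n = 3 each), and the log2 difference was 1.11 ± 0.20 (SE), or 2.15-fold, with a limma adjusted p of 0.474. Without each library in turn the difference was 1.03 to 1.24 and the adjusted p 0.150 to 0.931. In the female hypothalamus it had 13.5, 22.0 and 26.6 FPKM with testosterone, against 23.7, 23.5 and 14.3 FPKM with oil, a difference of 0.00 ± 0.29 (SE) with overlapping groups. In the male nucleus taenia it had 28.9, 14.5 and 47.0 FPKM with testosterone, against 18.3, 22.4 and 21.3 FPKM with oil, and the groups overlapped.

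ENSTGUG00000013282 had 44.6, 36.6 and 33.5 FPKM in testosterone males, against 490, 295 and 135 FPKM in control males. The testosterone values were close together, while the control values spread more than 3-fold. The means were 38.2 ± 5.76 and 306 ± 178 FPKM (SD, n = 3 each), and the log2 difference was -2.79 ± 0.44 (SE), or 6.93-fold lower, with a limma adjusted p of 0.474. Without each library in turn the difference was -3.29 to -2.36 and the adjusted p 0.0925 to 0.931. The 3 values of testosterone male hypothalamus were the lowest of all 24 libraries, of which the next was 57.3 FPKM in a control male nucleus taenia. In the female hypothalamus it had 233, 122 and 1072 FPKM with testosterone, against 563, 138 and 139 FPKM with oil, and the groups overlapped, with a difference of 0.50 ± 0.79 (SE). In the male nucleus taenia it had 175, 645 and 117 FPKM with testosterone, against 205, 57.3 and 98.5 FPKM with oil, and the groups overlapped, with a difference of 1.17 ± 0.66 (SE). In the female nucleus taenia it had 75.7, 74.1 and 61.3 FPKM with testosterone, against 299, 94.0 and 775 FPKM with oil. The groups were separate there and lower with testosterone, as in the male hypothalamus. How many of all members were separate there was not counted. For the other identifiers the groups overlapped in the female nucleus taenia.

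ENSTGUG00000004239 had 27.6, 30.4 and 74.0 FPKM in testosterone males, against 698, 448 and 199 FPKM in control males. Both groups spread more than 2-fold and did not overlap. The means were 44.0 ± 26.0 and 448 ± 250 FPKM (SD, n = 3 each), and the log2 difference was -3.29 ± 0.54 (SE), or 9.77-fold lower, with a limma adjusted p of 0.474. Without each library in turn the difference was -3.78 to -2.88 and the adjusted p 0.113 to 0.931. In the female hypothalamus it had 389, 157 and 1114 FPKM with testosterone, against 752, 171 and 205 FPKM with oil, and the groups overlapped. In the male nucleus taenia it had 293, 533 and 72.3 FPKM with testosterone, against 265, 56.5 and 147 FPKM with oil, and the groups overlapped. Across the series its values ran from 14.7 FPKM in a female control nucleus taenia to 1114 FPKM in a female testosterone hypothalamus, so the male hypothalamus groups lay inside the range of the other libraries. The 2 lower genes were both highest in the same library, female testosterone hypothalamus replicate 3. Within every control group they put the libraries in the same order. The same held in testosterone female hypothalamus and testosterone male nucleus taenia. In testosterone male hypothalamus and testosterone female nucleus taenia the order differed. Whether the 2 genes vary together was not tested, so they are not to be read as separate examples.

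**Figure D5:**
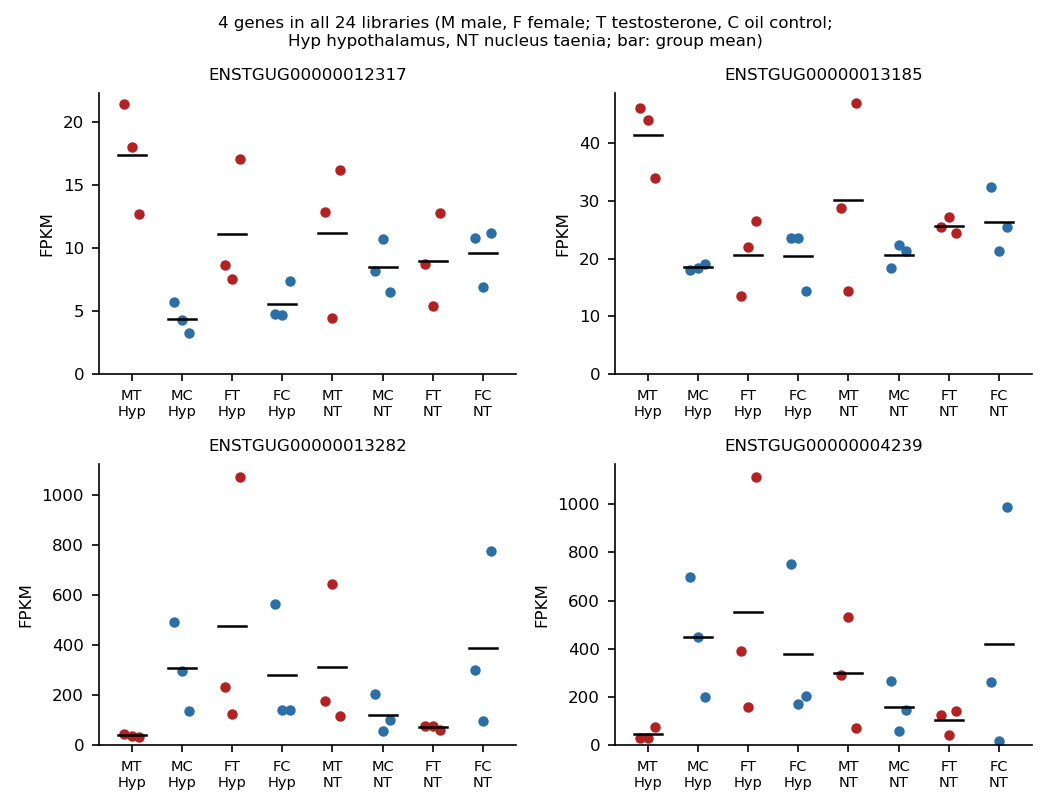
FPKM (y axis, linear scale) of the 4 identifiers in all 24 libraries, by sex, treatment and region (x axis), with testosterone (red) left of oil control (blue) in each pair, points for libraries and bars for group means. In the male hypothalamus the groups are separate for all 4, and in the female hypothalamus they are separate for ENSTGUG00000012317 and overlap for the other 3. In the female nucleus taenia they are separate for ENSTGUG00000013282 and overlap for the other 3.

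The difference between treatments was then tested for a difference between the sexes and between the regions. For the male against the female hypothalamus, limma's interaction term over 12 libraries passed an adjusted p of 0.05 in 0 of 13402 genes. Its smallest adjusted p was 0.977, and 402 genes had an unadjusted p under 0.05. For the hypothalamus against the nucleus taenia in males it passed in 0 of 13402 genes. There the smallest adjusted p was 0.868, and 695 genes had an unadjusted p under 0.05. The median half-width of the 95% interval of these differences was 1.27 and 1.12 on the log2 scale, wider than a 2-fold difference. For each of the 4 identifiers the adjusted p of the interaction was 0.977 by sex and 0.868 by region. A difference of response between the sexes or regions was thus not detectable for single genes with 3 libraries a group, and likeness was not shown either.

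The members whose groups were separate in the male hypothalamus were also read in libraries that had no part in choosing them. Of the 1093 higher genes, 825 (75.5%) were higher with testosterone in the female hypothalamus, where 50.5% of all members were higher, and their median log2 difference there was 0.27. The share was 68.3% to 77.8% without each female library in turn, and 73.0% without female testosterone hypothalamus replicate 3, a library that stood apart in earlier work on these data. Of the 1154 lower genes, 67.9% were lower with testosterone in the female hypothalamus, where 49.3% of all members were lower, and their median there was -0.28. That share was 60.1% to 76.2% without each female library in turn, and 67.1% without the same replicate 3. Groups were separate in the same direction in both sexes in 144 of the 1093 higher genes (13.2%), beside 4.89% of all members separate and higher in females. For the lower genes this held for 92 of 1154 (7.97%), beside 4.57% of all members. Direction in the male hypothalamus thus went with direction in the female hypothalamus for most of these genes, and genes share libraries, so no p is given. Of the separate genes that were also 2-fold apart, 63.0% of 189 higher and 65.2% of 342 lower genes kept their direction in females. Without female control hypothalamus replicate 1 these shares were 47.6% and 51.5%, near the 49.0% and 50.8% of all members. For the larger differences the carry-over thus depended on that library.

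The shares by level lay nearer to 50% in the female hypothalamus. The share of members higher with testosterone was 49.9% at 1 to 3 FPKM and 52.5% at 3 to 10 FPKM in the female hypothalamus, against 37.3% and 37.8% in the male hypothalamus. Without each female library in turn these shares were 46.9% to 53.7% and 48.3% to 58.0%. Whether the sexes differ in this was not tested. The 2-fold genes carried over less evenly. Of the 417 genes 2-fold higher in males, 52.5% were higher in the female hypothalamus, with 43.7% to 59.0% in leave-outs. Of the 740 genes 2-fold lower in males, 61.0% were lower there, with 51.4% to 65.7% in leave-outs.

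In the male nucleus taenia the answer turned on 1 library. Whether a bird gave tissue to both regions is not in the labels. Of the 1093 higher genes, 35.9% were higher with testosterone in the nucleus taenia with all 6 of its libraries, where 51.7% of all members were higher, and 65.6% without testosterone nucleus taenia replicate 2. The remaining leave-outs gave 25.9% to 45.6%. Of the 1154 lower genes, 38.4% were lower there with all 6 libraries, where 48.2% of all members were lower. Without testosterone nucleus taenia replicate 2 this share was 61.6%, and in the remaining leave-outs 27.6% to 48.7%. The 8 higher genes with a 2-fold gap were all higher in the nucleus taenia, with a median log2 difference of 1.10 and 75% to 100% higher in leave-outs, and 4 of the 8 were higher in the female hypothalamus. These 8 had means of 1.01 to 10.9 FPKM, and 2 of them were above 0 in all 6 male hypothalamus libraries. A gene of such a level can be a member through 1 group alone. Of the 21 lower genes with a 2-fold gap, 71.4% were lower in the female hypothalamus and 23.8% in the nucleus taenia. Without each library in turn these shares were 52.4% to 81.0% and 23.8% to 42.9%, the lowest in females being without female control hypothalamus replicate 1. For the 1093 and the 1154 genes the direction in the nucleus taenia changed with testosterone nucleus taenia replicate 2.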

How the data were processed

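The authors' deposited values are FPKM for 17475 genes in 24 libraries of 8 groups, and 0 columns could not be tied to a sample. The submitters' processing notes name TopHat2 2.1.1, Cufflinks 2.2.1 and cutadapt 1.9.1. The build and the gene models are not given in the sources used. FPKM divides out depth and gene length, so the reads behind a value are not known, and a 0 can be a failed estimate.

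The 6 male hypothalamus libraries were compared on log2(FPKM + 1) with limma 3.58.1 (R 4.3.3), with a variance trend on mean expression and Benjamini-Hochberg adjustment over the 13402 genes of mean FPKM of at least 1. Library measures were compared by an exact permutation test. Members and lists were chosen with earlier results of these data known. The gene lists and markers could not be used, because 0 identifiers matched the gene table (assembly bTaeGut7.mat). The named genes are the 2 of smallest p in each direction among members above 0 in all 6 libraries. Alternatives were pseudocounts of 0.1 and 5, other filters, scalings, fits, sets of libraries, a replicate block and leaving out each library. The limma fit of the 6 libraries was tried on simulated libraries with known changes, and only its mean estimates were checked. The 24 methylation samples were not analysed here.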

Additional observations from a re-analysis of the deposited data

How the results depend on the processing

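The count of genes past an adjusted p of 0.05 was 0 with all 6 libraries and under both other pseudocounts, both other filters, both scalings, robust moderation and the 12 hypothalamus libraries. It was 1 with the 12 male libraries in the fit and 1 with library weights, and the gene called held a 0 in each case. The weights were 9.005 for control library 2 and 0.382 to 1.001 for the others, so the weighted control values came mostly from 1 library. The count was 0 to 4 without 1 library. It was 8 without testosterone and control libraries 1 together, a choice made after seeing the data. At an unadjusted p under 0.05, the 1314 genes became 842 with the 12 hypothalamus libraries, 2522 with library weights, 655 to 1746 without 1 library and 706 without both. Separate groups numbered 2858 to 4423 without 1 library and 4836 without both, where fewer samples make separation easier. Genes past 2-fold numbered 1731 with a pseudocount of 0.1 and 514 with 5, which shrinks low differences, 1020 to 1775 without 1 library and 836 without both. The share of higher genes crossed 50% under quantile normalization, at 51.4% of all members. It was 52.6% at 1 to 3 FPKM, 51.1% at 3 to 10 FPKM and 52.5% at 10 to 30 FPKM. That step takes out a general shift by construction, and the cause was not tested. Without 1 library the share of higher genes was 46.3% to 55.8% at 30 to 100 FPKM and 47.4% to 58.3% at 100 to 300 FPKM. Without both it was 47.8% at 30 to 100 FPKM. The interaction by sex had 0 to 1 genes past the threshold without 1 library. Same-numbered libraries deviated with r = 0.192, -0.018 and 0.077, and differently numbered ones with r = -0.150 to 0.122. The highest value was that of the libraries numbered 1. The labels do not say what the numbers mark, so they were not taken to pair libraries. With the replicate block in the limma fit 0 genes passed and 1446 were at an unadjusted p under 0.05. The 4 named genes kept their direction under every alternative run. They were picked by small p in these same libraries, so this is no support for them. In the 6 leave-outs the direction turned in 0 of the 555 higher and 0 of the 759 lower genes at an unadjusted p under 0.05. Those genes too were picked by small p in these same libraries, so a kept direction is no support for them. Depth is unknown, and 3 libraries a group limit precision most under 10 FPKM.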
